A study of Mus musculus with 10 samples.

Results

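The mitochondrial chromosome of the mouse carries its own genes, and all of those in the quantified annotation were taken by their symbols, which start with mt-. They were 37 of the 54309 genes in the deposited tables, namely 13 protein-coding genes, 2 rRNA genes and 22 tRNA genes. The tables hold RNA-seq of dorsal root ganglia (DRG), the clusters of sensory neuron bodies beside the spinal cord. Lumbar DRG L4 and L5 of the operated left side came from C57BL/6 mice aged 6 to 8 weeks, 24 h after surgery on the sciatic nerve at mid-thigh. The 4 groups were female axotomy (3 libraries, nerve cut across its whole width), female sham (2 libraries, nerve exposed and left intact), male axotomy (3 libraries) and male sham (2 libraries). The labels name no transgene and no drug treatment in any group, and no unoperated mice were analysed here. Each library pooled the DRG of 2 mice, so that the replicates are separate pools of animals.

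Mitochondrial DNA is transcribed as long RNAs that run across many genes, and these are cut mostly at the tRNAs that lie between them. The mRNAs released in this way encode core subunits of respiratory complexes I, III and IV and of the ATP synthase, and the remaining subunits of these complexes come from nuclear genes. Most mitochondrial mRNAs receive a poly(A) tail, which in several cases also completes the stop codon. The rRNAs carry only short A tails and the tRNAs none, and in human cells the mRNA of ND6 largely lacks a tail. The libraries were made from poly(A)-selected RNA, so a low count of an rRNA, a tRNA or mt-Nd6 is not a measure of its amount in the tissue. Sensory neurons, with axons far larger than their cell bodies, depend heavily on mitochondrial ATP.

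Of the 13 protein-coding genes, 12 are annotated on the plus strand of the mitochondrial chromosome and mt-Nd6 alone on the minus strand. Their annotated transcripts run from 204 bases (mt-Atp8) to 1824 bases (mt-Nd5). Parts of them are shown because they bear on what short reads can tell apart. Sequences are from the Gencode M21 transcripts (GRCm38), whose lengths equal those in the deposited tables (Gencode M27) for all 37 mitochondrial genes and the 7 nuclear copies described next. The first set shows where neighbouring genes share bases, in capitals. The end of mt-Atp8 and the start of mt-Atp6 share 43 bases, and those of mt-Nd4l and mt-Nd4 share 7 bases.
mt-Atp8 end, chrM:7907-7969, plus strand: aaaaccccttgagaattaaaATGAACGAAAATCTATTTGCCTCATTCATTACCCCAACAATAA
mt-Atp6 start, chrM:7927-7989, plus strand: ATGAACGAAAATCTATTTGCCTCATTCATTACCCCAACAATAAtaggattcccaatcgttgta
mt-Nd4l end, chrM:10147-10173, plus strand: caaaatctcaacctactacaATGCTAA
mt-Nd4 start, chrM:10167-10193, plus strand: ATGCTAAaaattattcttccctcacta

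The second set shows the 3′ ends of the 3 protein-coding genes whose length is not a whole number of codons. The capital is the base beyond the last whole codon, a T that poly(A) addition extends to a stop codon in the mature mRNA.
mt-Co3 end, chrM:9361-9390, plus strand: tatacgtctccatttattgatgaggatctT
mt-Nd4 end, chrM:11515-11544, plus strand: gtccaaaactaattacaggcctgacaataT
mt-Cytb end, chrM:15259-15288, plus strand: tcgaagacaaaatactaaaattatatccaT

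The third set concerns copies of mitochondrial DNA in the nuclear genome. A search of the annotated transcripts with each mitochondrial gene found 7 pseudogenes with at least 99% identity over at least 200 bases, all on the minus strand of chromosome 1 between 24611535 and 24616197 (GRCm38). They copy mt-Nd4 (Gm28439), mt-Nd4l (Gm10222), mt-Nd3 (Gm28438), mt-Co3 (Gm28437), mt-Atp6 (Gm10925), mt-Co2 (Gm28661) and mt-Co1 (Gm29216). Gm28437 equals mt-Co3 in all of its 783 bases and lacks only the final T of the 784 bases shown above. Gm28438 differs from mt-Nd3 by 1 base in 345, T3C, counted from the first base of mt-Nd3 and shown as capitals.
mt-Nd3 start, chrM:9459-9486, plus strand: atTaacctgtacactgttatcttcatta
Gm28438 start, chr1:24613092-24613119, minus strand: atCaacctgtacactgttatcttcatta

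Reads from such stretches match both copies equally well, and the quantification divides them between the copies by an estimate. The estimate moved from library to library. Gm28437 took 30.1% to 73.0% of the counts of mt-Co3 and Gm28437 together, Gm28438 took 23.0% to 58.2% with mt-Nd3, and Gm28661 took 22.6% to 45.2% with mt-Co2. The shares were lower for Gm10925 (0.645% to 7.67% with mt-Atp6), Gm28439 (at most 2.65% with mt-Nd4) and Gm29216 (at most 0.958% with mt-Co1), and Gm10222 was listed at 0 in all 10 libraries. The other 10 nuclear copies found, at 90% identity or more, held at most 23 counts in any library. Values of the 7 copied genes are therefore uncertain, and they are given both as counted and with the copy added, an alternative chosen after seeing the data. The remaining mitochondrial mRNAs (mt-Nd1, mt-Nd2, mt-Atp8, mt-Nd5, mt-Nd6 and mt-Cytb) and both rRNAs had no near-identical copy.

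The libraries held 55258476 to 90111671 estimated counts, and replicates spread more widely than counting alone gives in all 4 groups. Male axotomy 2 was the deepest library. Markers of sensory neurons (15 genes, none at 0) summed to 15640 to 22760 CPM (counts scaled to a fixed library total of all estimated counts) across the libraries, so the defining markers of the labelled tissue were present. Xist and Ddx3y matched the labelled sex in all 10 libraries. Female axotomy 2 stood apart in skeletal muscle markers (13 genes, none at 0), with a summed level of 179.9 CPM, against 3.65 to 7.66 CPM in female sham.

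mt-Co1, the catalytic subunit of complex IV (cytochrome c oxidase), had more counts than any other gene in the tables, with or without its copy. As counted, mt-Cytb, the only mitochondrially encoded subunit of complex III, ranked 4 among all 54309 genes, mt-Atp6 ranked 7, mt-Nd4 ranked 8 and mt-Co2 ranked 9. mt-Nd6 ranked 9181. With the copies added, mt-Co3 ranked 3 (32 as counted), mt-Co2 ranked 4, mt-Cytb 6, mt-Atp6 9 and mt-Nd4 10. As a share of the counts of all 13 mRNAs as counted, mt-Co1 averaged 31.1% ± 0.787 (SD over 10 libraries), mt-Cytb 11.5% ± 0.483, mt-Atp6 9.42% ± 0.621 and mt-Nd6 0.0411% ± 0.0125. Levels can be compared between genes only per length, and the order then changed. Per effective length (the number of positions a read pair can start from, as Salmon estimates it) and as counted, mt-Atp8 came first with 39.6% ± 1.66 of the sum, ahead of mt-Co1 with 9.99% ± 0.398, mt-Atp6 with 9.58% ± 0.722 and mt-Nd4l with 8.52% ± 0.455. Those of mt-Co1 and mt-Atp6 differed by less than their spread. The effective length of mt-Atp8 was only 45 to 48 bases, against 1074 to 1147 bases for mt-Co1, so its place rests on a very short stretch. On the same strand mt-Atp8 shares 43 bases with mt-Atp6, and mt-Nd4l shares 7 bases with mt-Nd4. This order is therefore one of annotated genes and need not be one of separate RNA molecules. At the low end came mt-Nd3 with 1.96% ± 0.370, mt-Nd5 with 1.76% ± 0.160 and mt-Nd6 with 0.0629% ± 0.0176. mt-Nd3 and mt-Nd5 differed by less than their spread as counted. With the copies added, mt-Atp8 remained first with 35.3% ± 1.67 and mt-Co2 came next with 10.9% ± 0.309. mt-Co1 (8.94% ± 0.312), mt-Atp6 (8.89% ± 0.516) and mt-Co3 (8.84% ± 0.558) then differed by less than their spread. mt-Nd3 stood at 3.07% ± 0.355, above mt-Nd5 at 1.57% ± 0.170.

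**Figure D1:**
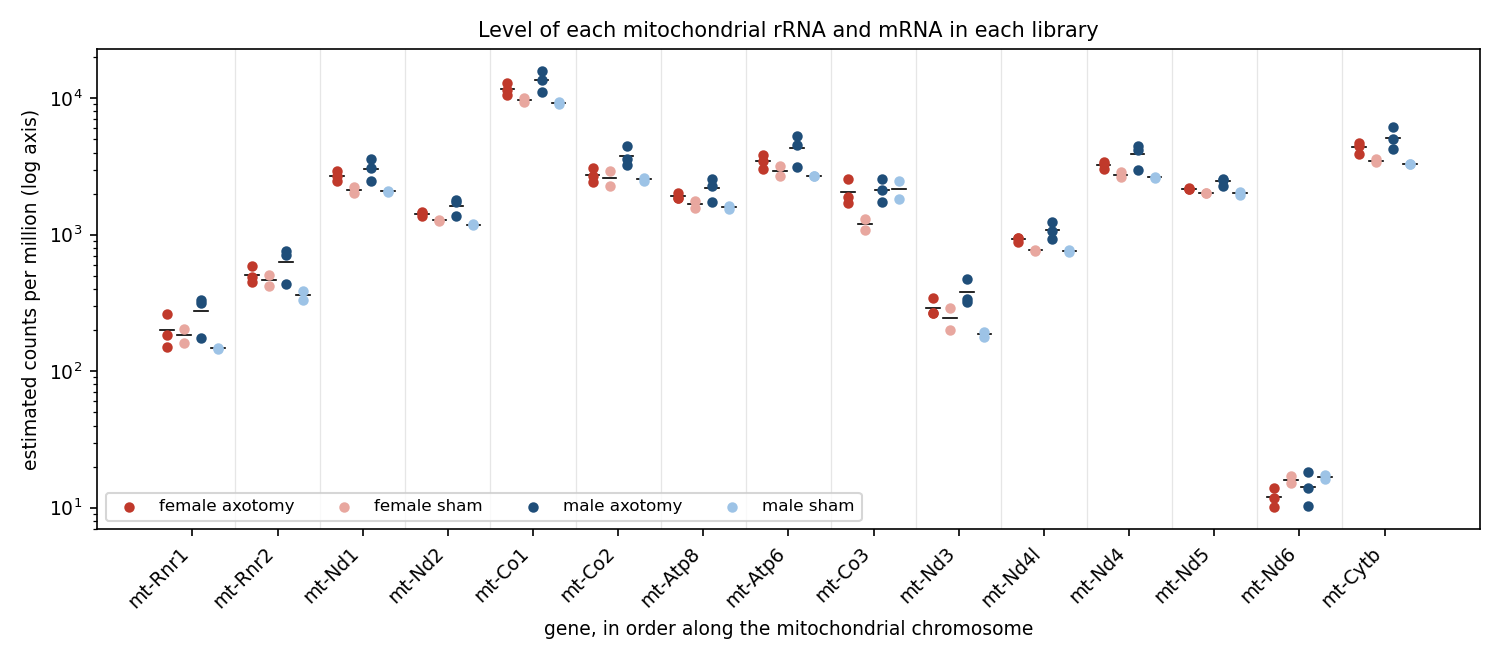
CPM (log axis) of the 2 rRNAs and 13 mRNAs in each library, in their order along the mitochondrial chromosome, with a black line at each group mean. mt-Co1 lies above all others and mt-Nd6 below all others in every group, and the axotomy points lie wholly above the sham points for 13 of 15 genes in males and 9 of 15 in females, where those of mt-Nd6 lie below. Of all genes tested, 33.8% in males and 27.8% in females separated upward, and 26.4% in females separated downward.

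The 37 mitochondrial genes took a larger share of the library after axotomy in both sexes. In females they held 4.04%, 3.81% and 3.44% of all estimated counts after axotomy, against 3.27% and 3.01% after sham. Male libraries had 4.61%, 3.61% and 5.11% after axotomy, against 3.12% and 3.06% after sham. The groups did not overlap in either sex, and the lowest male axotomy value was that of the deepest library, male axotomy 2. Group means were 3.76% ± 0.306 in female axotomy (SD, n = 3) and 3.14% ± 0.187 in female sham (SD, n = 2), a ratio of 1.198, and 4.44% ± 0.764 in male axotomy (SD, n = 3) and 3.09% ± 0.0460 in male sham (SD, n = 2), a ratio of 1.44. These shares are a description, with no test. Nearly all of the counts were mRNA, with 2.95% to 5.00% of the library, while the 2 rRNAs held 0.0481% to 0.108%. With the 7 nuclear copies included, the shares were 4.72%, 4.33% and 3.95% in female axotomy, against 3.69% and 3.39% in female sham, and 5.28%, 3.97% and 5.96% in male axotomy, against 3.35% and 3.39% in male sham, again without overlap. In bulk tissue, fewer cells of a type and less RNA per cell cannot be told apart, and a share can also move because other RNAs do.

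**Figure D2:**
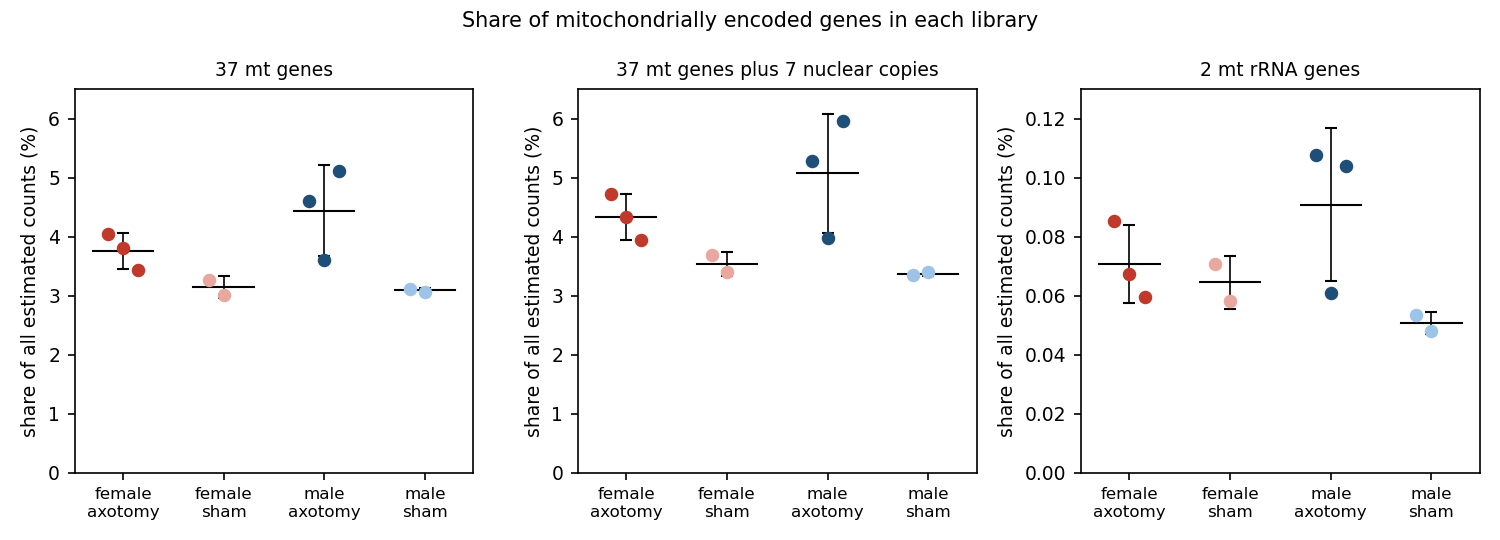
Share of all estimated counts (%) held by the 37 mitochondrial genes, by these genes plus their 7 nuclear copies, and by the 2 rRNA genes, with 1 point per library, a line at the mean and bars of 1 SD. Axotomy libraries lie above sham libraries of the same sex in the first and second panels, and for the rRNAs in males only.

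For single genes, edgeR's quasi-likelihood test compared axotomy with sham in each sex, with p values adjusted over all 20836 genes tested and called at padj under 0.1. All 13 mRNAs and both rRNAs were tested, and no tRNA was. As counted, 13 of the 15 rose in males (all but mt-Co3 and mt-Nd6), and 2 of 15 rose in females (mt-Co3 and mt-Nd4l). Over all genes tested, 21.8% rose in males and 10.4% rose in females. None of the 15 fell in either sex by edgeR or by DESeq2, and at unadjusted p under 0.05 the 13 in males and 3 in females all had positive values. The median log2 fold change (log2FC) of the 15 genes was 0.50 in males and 0.22 in females, beside 0.03 and 0.00 over all genes tested. The axotomy libraries lay wholly above the sham libraries in CPM for 13 of 15 genes in males and 9 of 15 in females, where 33.8% and 27.8% of all genes tested did so. With the copies added, 14 of 15 rose in males and 1 of 15 in females, and the ranges separated for 14 genes in males and 12 in females.

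Counts in fits that left out 1 library are given without a share over all genes and show only how far the main counts moved. The count in females rested on single libraries. It was 0 without female axotomy 2, without female sham 1 or without female sham 2. It was 1 without female axotomy 1, female axotomy 3, male axotomy 1, male sham 1 or male sham 2, then 4 without male axotomy 3 and 8 without male axotomy 2, which also enters the shared estimate of the spread. In that last fit mt-Nd6 was the 1 gene that fell. In males the number that rose was 8 without male sham 2, 9 without male sham 1, 12 without male axotomy 1 and 13 in the other 7 fits that left out 1 library. Over these 10 fits the call of mt-Atp8 was lost in 3, those of mt-Rnr1, mt-Co1 and mt-Nd5 in 2 each and that of mt-Co2 in 1. Without male axotomy 1, mt-Nd6 fell in males, at −0.47 (padj = 0.0837 by edgeR).

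**Figure D3:**
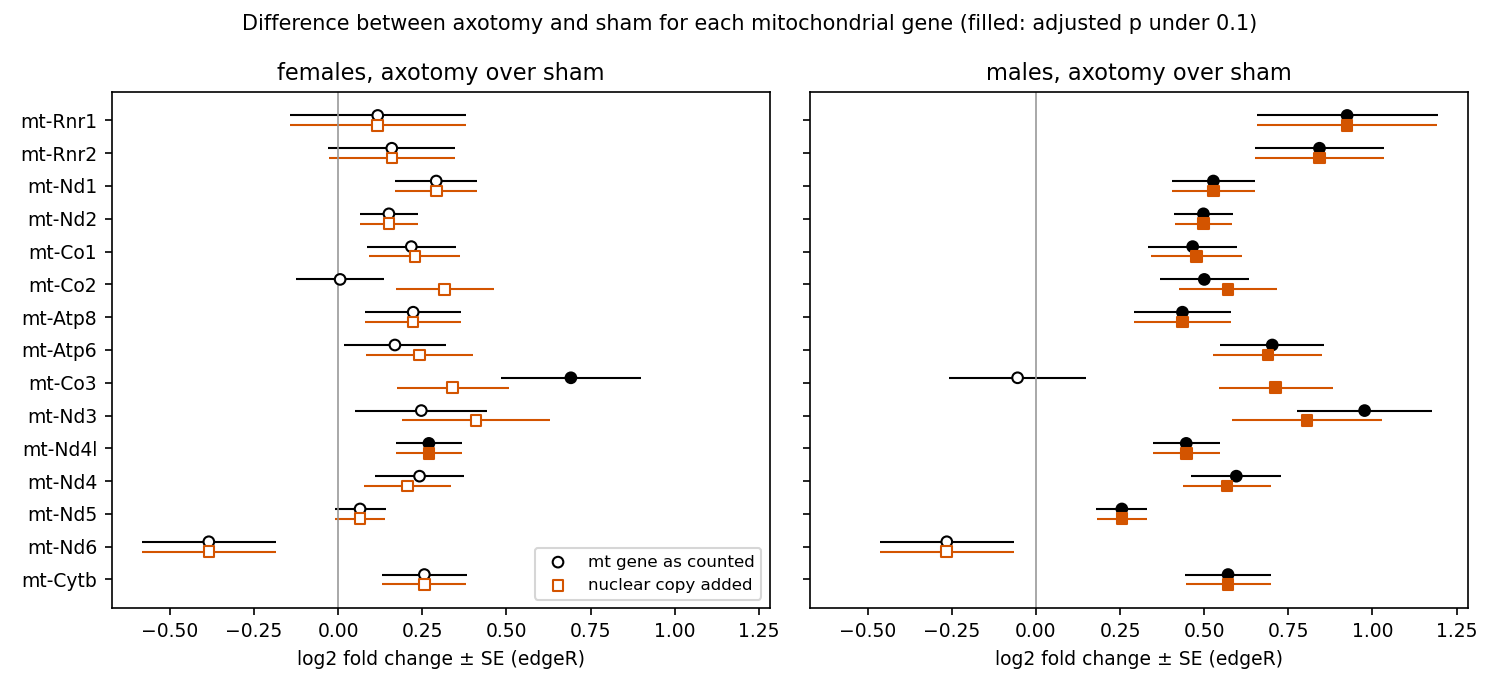
Log2 fold change of axotomy over sham with its SE for the 2 rRNAs and 13 mRNAs, in females (left) and males (right), as counted (circles) and with the near-identical nuclear copy added (squares). Filled symbols have an adjusted p under 0.1. mt-Co3 moves from 0.69 to 0.34 in females and from −0.05 to 0.71 in males when Gm28437 is added, and mt-Nd6 alone stays below 0 in both sexes.

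The largest subgroup encodes 7 subunits of complex I (NADH dehydrogenase), which passes electrons from NADH to ubiquinone. mt-Nd1 had 2933, 2689 and 2487 CPM in female axotomy, against 2232 and 2019 CPM in female sham, and 3076, 2456 and 3609 CPM in male axotomy, against 2089 and 2059 CPM in male sham. The 3 female axotomy libraries lay above both female sham libraries, as did the male ones above male sham. In the edgeR fit mt-Nd1 had a log2FC of 0.53 ± 0.12 in males (SE, padj = 0.00862) and 0.29 ± 0.12 in females (padj = 0.142). mt-Nd2 had 1474, 1430.0 and 1371 CPM in female axotomy, against 1288 and 1260.0 CPM in female sham, and 1802, 1374 and 1727 CPM in male axotomy, against 1189.5 and 1172 CPM in male sham. The edgeR log2FC of mt-Nd2 was 0.50 ± 0.09 in males (SE, padj = 0.00240) and 0.15 ± 0.09 in females (padj = 0.273). The female and male ranges again separated, and the values of male axotomy 2 were the nearest to sham.

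mt-Nd4 had 3393, 3298 and 3054 CPM in female axotomy, against 2858 and 2659 CPM in female sham, and 4185, 2976 and 4494 CPM in male axotomy, against 2600.3 and 2649 CPM in male sham. mt-Nd4l had 943, 938 and 886 CPM in female axotomy, against 757 and 777 CPM in female sham, and 1066, 929 and 1237 CPM in male axotomy, against 777 and 746 CPM in male sham. Both genes, neighbours that share 7 bases, separated in females and in males. With Gm28439 added, mt-Nd4 had a fitted log2FC of 0.57 ± 0.13 in males (padj = 0.00806 by edgeR) and 0.21 ± 0.13 in females (padj = 0.320). By edgeR the log2FC of mt-Nd4l was 0.45 ± 0.10 (SE) in males, with padj = 0.00702, and 0.27 ± 0.10 in females, with padj = 0.0987. For mt-Nd4, edgeR gave a log2FC of 0.60 ± 0.13 in males (SE, padj = 0.00735) and 0.24 ± 0.13 in females (padj = 0.256). mt-Nd5 had 2172, 2163 and 2180.4 CPM in female axotomy, against 2025 and 2027 CPM in female sham, and 2529.7, 2276 and 2555 CPM in male axotomy, against 2057 and 1961 CPM in male sham. This was the smallest of the differences called in males. In the edgeR fit mt-Nd5 had a log2FC of 0.26 ± 0.08 in males (SE, padj = 0.0255) and 0.07 ± 0.08 in females (padj = 0.614).

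mt-Nd3 had 267, 341 and 267 CPM in female axotomy, against 290.1 and 201 CPM in female sham, and 472, 323 and 340.1 CPM in male axotomy, against 193 and 179 CPM in male sham. As counted, male axotomy lay far above male sham while the female ranges overlapped. The edgeR log2FC of mt-Nd3 was 0.98 ± 0.20 in males (SE, padj = 0.00535) and 0.25 ± 0.20 in females (padj = 0.442). With Gm28438 added, the sum had 585, 511 and 460.2 CPM in female axotomy, against 426 and 352 CPM in female sham, and 784, 419.8 and 813 CPM in male axotomy, against 378 and 361 CPM in male sham. The female ranges then separated too, the male log2FC was smaller and the female one larger, at 0.81 ± 0.22 in males (padj = 0.0194 by edgeR) and 0.41 ± 0.22 in females (padj = 0.249).

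mt-Nd6, the complex I gene on the minus strand, had negative estimates in both sexes that did not pass. mt-Nd6 had 10.1, 11.8 and 13.8 CPM in female axotomy, against 15.1 and 17.0 CPM in female sham, and 18.2, 10.3 and 13.9 CPM in male axotomy, against 16.3 and 17.5 CPM in male sham. All 3 female axotomy libraries were below both female sham libraries (26.4% of all genes tested separated in this direction), and the male ranges overlapped. By edgeR the log2FC of mt-Nd6 was −0.26 ± 0.20 (SE) in males, with padj = 0.336, and −0.38 ± 0.20 in females, with padj = 0.232. Its last 14 bases overlap mt-Nd5 on the opposite strand, and whether the quantification used strand is unknown here, so reads in that stretch cannot be assigned with certainty. As a share of the counts of the 13 mitochondrial mRNAs, mt-Nd6 averaged 0.0326% ± 0.00785 in female axotomy and 0.0524% ± 0.00756 in female sham. In males it averaged 0.0324% ± 0.00698 in axotomy and 0.0556% ± 0.00345 in sham (SD, n = 3 and 2 in each sex). Those shares did not overlap between axotomy and sham in either sex and were not tested. Such a share also moves when the counts of the other mitochondrial mRNAs do.

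Complex III, which passes electrons to cytochrome c, has a single mitochondrially encoded subunit, cytochrome b. mt-Cytb had 4723, 4433 and 3933 CPM in female axotomy, against 3608 and 3381 CPM in female sham, and 4986, 4244 and 6099.7 CPM in male axotomy, against 3299.5 and 3300.5 CPM in male sham. The groups separated in both sexes. For mt-Cytb, edgeR gave a log2FC of 0.57 ± 0.13 in males (SE, padj = 0.00695) and 0.26 ± 0.13 in females (padj = 0.204).

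Complex IV reduces oxygen, and its 3 mitochondrially encoded subunits all have a nuclear copy. mt-Co1 had 12858, 11495 and 10548 CPM in female axotomy, against 9995 and 9303 CPM in female sham, and 13657, 11031 and 15802 CPM in male axotomy, against 9065 and 9451 CPM in male sham. Here the copy took almost nothing, and the ranges separated in both sexes. With Gm29216 added, the fitted log2FC was 0.48 ± 0.14 in males (padj = 0.0211 by edgeR) and 0.23 ± 0.14 in females (padj = 0.294). In the edgeR fit mt-Co1 had a log2FC of 0.47 ± 0.13 in males (SE, padj = 0.0208) and 0.22 ± 0.13 in females (padj = 0.305). mt-Co2 had 3097, 2682 and 2425 CPM in female axotomy, against 2938 and 2277 CPM in female sham, and 3558, 3244 and 4437 CPM in male axotomy, against 2609 and 2481 CPM in male sham. As counted, female sham 1 lay within the range of female axotomy. The edgeR log2FC of mt-Co2 was 0.50 ± 0.13 in males (SE, padj = 0.0149) and 0.01 ± 0.13 in females (padj = 0.983). With Gm28661 added, the sum had 5398, 4896 and 4321 CPM in female axotomy, against 3922 and 3556 CPM in female sham, and 5929.6, 4191 and 6659 CPM in male axotomy, against 3549 and 3683 CPM in male sham. The female ranges then separated, and the fitted log2FC was 0.57 ± 0.15 in males (padj = 0.0133 by edgeR) and 0.32 ± 0.15 in females (padj = 0.176).

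mt-Co3, a further core subunit of complex IV, showed how far the division of reads can carry a result. mt-Co3 had 1878, 2573 and 1697 CPM in female axotomy, against 1086 and 1307 CPM in female sham, and 2552, 1733 and 2138 CPM in male axotomy, against 2463 and 1833 CPM in male sham. As counted, all female axotomy libraries were above female sham, while the male groups overlapped, with male sham 1 above 2 of the 3 male axotomy libraries. By edgeR the log2FC of mt-Co3 was −0.05 ± 0.20 (SE) in males, with padj = 0.861, and 0.69 ± 0.21 in females, with padj = 0.0533. Gm28437 had 3783, 2587 and 2723 CPM in female axotomy, against 2934 and 2266 CPM in female sham, and 3860.1, 2605 and 5429.9 CPM in male axotomy, against 1059.6 and 1812 CPM in male sham. The 2 male sham libraries had the lowest values of the copy among all 10. The sum of mt-Co3 and Gm28437 had 5661, 5161 and 4419.9 CPM in female axotomy, against 4021 and 3573 CPM in female sham, and 6412, 4338 and 7568 CPM in male axotomy, against 3522 and 3645 CPM in male sham. In the sum, every axotomy library was above every sham library, and the 2 male sham libraries, far apart for mt-Co3 alone, lay close together. The fitted log2FC of the sum was 0.71 ± 0.17 in males (padj = 0.00927 by edgeR) and 0.34 ± 0.17 in females (padj = 0.203). The rise in females was thus lost and the male value changed sign and was called. Across the 12 plus-strand mRNAs, the SD of the log2FC over genes was 0.145 in males with copies added and 0.245 as counted, and 0.0891 and 0.167 in females. Which of the reads came from the nuclear copy cannot be told from these counts.

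The ATP synthase subunits a and 8 form part of its membrane-bound proton channel. mt-Atp6 had 3819, 3492 and 3045 CPM in female axotomy, against 3172 and 2686 CPM in female sham, and 4571, 3125 and 5279 CPM in male axotomy, against 2683 and 2676 CPM in male sham. Female axotomy 3 was below female sham 1, and the male groups separated. For mt-Atp6, edgeR gave a log2FC of 0.70 ± 0.15 in males (SE, padj = 0.00668) and 0.17 ± 0.15 in females (padj = 0.502). mt-Atp8 had 2019.6, 1857 and 1859.9 CPM in female axotomy, against 1751 and 1581 CPM in female sham, and 2542, 1725 and 2291 CPM in male axotomy, against 1630.2 and 1548 CPM in male sham. Here both sexes separated, with male axotomy 2 close to male sham. In the edgeR fit mt-Atp8 had a log2FC of 0.44 ± 0.14 in males (SE, padj = 0.0388) and 0.22 ± 0.14 in females (padj = 0.334). With Gm10925 added, the sum had 4136, 3685 and 3279 CPM in female axotomy, against 3206 and 2762 CPM in female sham, and 4734, 3146 and 5492 CPM in male axotomy, against 2735 and 2836 CPM in male sham. The sum separated in females as well, and its log2FC was 0.69 ± 0.16 in males (padj = 0.00888 by edgeR) and 0.24 ± 0.16 in females (padj = 0.347).

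The rRNA genes encode the RNA of the small (mt-Rnr1, 12S) and large (mt-Rnr2, 16S) subunits of the mitochondrial ribosome. The libraries were made from poly(A)-selected RNA, so a change in these counts need not be a change in the amount of rRNA. mt-Rnr1 had 264, 184 and 150.2 CPM in female axotomy, against 204 and 161 CPM in female sham, and 317, 176 and 332 CPM in male axotomy, against 148 and 146 CPM in male sham. mt-Rnr2 had 589, 488 and 446 CPM in female axotomy, against 504 and 421 CPM in female sham, and 761, 433 and 706 CPM in male axotomy, against 387 and 335 CPM in male sham. In males, all axotomy libraries were above sham for both, with male axotomy 2 the lowest, and in females the groups overlapped for both. The edgeR log2FC of mt-Rnr1 was 0.92 ± 0.27 in males (SE, padj = 0.0264) and 0.12 ± 0.26 in females (padj = 0.809). By edgeR the log2FC of mt-Rnr2 was 0.84 ± 0.19 (SE) in males, with padj = 0.00821, and 0.16 ± 0.19 in females, with padj = 0.621. As counted, these were the largest values in males after that of mt-Nd3, which was smaller than both with Gm28438 added, and the call of mt-Rnr1 in males was lost in 2 of the 10 fits that left out 1 library, one lacking male sham 1 and one lacking male sham 2.

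Of the 22 tRNA genes, 59 to 75 bases long, 20 were listed at 0 in all libraries. The other 2 had 8 counts in all 10 libraries, 7 for mt-Tl1 (leucine) in 5 libraries and 1 for mt-Tt (threonine). A count of 0 still allows up to 3 counts, or 0.0333 to 0.0543 CPM depending on the library, for counting error only. No comparison of the tRNAs was detectable at this depth with these libraries, whose protocol selects poly(A) RNA.

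The response of the 2 sexes was compared with the interaction term, the male log2FC minus the female log2FC. By edgeR 0 of 15 genes passed (0.0192% of all genes tested did), 6 had an unadjusted p under 0.05, and DESeq2 also called 0. With the copies added, 0 passed by edgeR and 2 had an unadjusted p under 0.05. As counted, the estimate was positive for 14 of 15 genes, which were measured in the same libraries and are not separate observations. The median was 0.31, beside −0.01 over all genes tested. The largest were mt-Rnr1 at 0.81 ± 0.37 (SE, padj = 0.449 by edgeR), mt-Nd3 at 0.73 ± 0.28 (padj = 0.366) and mt-Rnr2 at 0.68 ± 0.27 (padj = 0.376). mt-Nd2 had the smallest p, with 0.35 ± 0.12 (padj = 0.334). Only mt-Co3 was negative as counted, at −0.75 ± 0.29 (padj = 0.372), and it was 0.37 ± 0.23 (padj = 0.556) with Gm28437 added. That of mt-Nd3 was 0.40 ± 0.31 (padj = 0.631 by edgeR) with Gm28438 added, below that of mt-Atp6, 0.45 ± 0.22 (padj = 0.478 by edgeR) with Gm10925 added. A larger response in males than in females was thus not shown at this number of libraries, nor was an equal one. Without male axotomy 2, 6 genes passed, namely mt-Rnr2, mt-Nd2, mt-Co2, mt-Atp6, mt-Nd4 and mt-Cytb, with a median of 0.42 over the 15 genes. The share over all genes in that fit is not given here, so the 6 are not read as a result about these genes.

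Males and females were also compared within each operation. Between male sham and female sham, 0 of 15 passed by edgeR (0.0432% of all genes tested passed) and 1 had an unadjusted p under 0.05, namely mt-Co3 at 0.82 ± 0.22 (SE, padj = 1). DESeq2 called that gene (padj = 0.0818). With Gm28437 added, mt-Co3 differed by −0.11 ± 0.18 (padj = 1 by edgeR) between the sham groups. The median over the 15 genes was −0.06. Between male axotomy and female axotomy, 0 of 15 passed by edgeR (1.52% of all genes tested passed) and 5 had an unadjusted p under 0.05. DESeq2 called 2 of them, mt-Nd2 and mt-Co2. All 15 estimates were positive, with a median of 0.21, beside −0.01 over all genes tested. The nearest to the threshold was mt-Co2 at 0.45 ± 0.12 (padj = 0.120 by edgeR), which was 0.20 ± 0.13 (padj = 0.492 by edgeR) with Gm28661 added. Without male axotomy 2, 13 of 15 genes passed, all higher in male axotomy. The share over all genes without male axotomy 2 is not given here, so the 13 are not read as a result about these genes. The comparison within axotomy therefore rested on whether that library was included.

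Marker levels of other cell types moved with the operation, and their part in the mitochondrial values was not tested. Sensory neuron markers (15 genes, none at 0) summed to 17650 to 18080 CPM in female axotomy, against 20230 to 21480 CPM in female sham, and to 15640 to 18090 CPM in male axotomy, against 21650 to 22760 CPM in male sham. Fibroblast markers (8 genes, none at 0) were 732.8 to 832.4 CPM in female axotomy, against 900.9 to 975.4 CPM in female sham, and 999.8 to 1961 CPM in male axotomy, against 694 to 742 CPM in male sham. In males the markers of macrophages (9 genes, 99.2 to 186.8 CPM in axotomy, against 50.3 to 54.7 CPM in sham), myelinating Schwann cells (9 genes, 7532 to 10400 CPM, against 5134 to 5756 CPM) and erythrocytes (5 genes, 1501 to 5679 CPM, against 768.6 to 844.6 CPM) were also higher after axotomy. So were those of satellite glia (9 genes, 4074 to 5091 CPM, against 3881 to 3916 CPM), which in females were 3664 to 3870 CPM in axotomy, against 3924 to 3971 CPM in sham. Macrophage markers were higher after axotomy in females too, at 77.5 to 98.8 CPM, against 64.4 to 76.7 CPM in female sham. Those of myelinating Schwann cells and erythrocytes overlapped between axotomy and sham in females. Endothelial markers (7 genes) were lower in males, at 85.5 to 88.3 CPM in axotomy, against 101.9 to 103.8 CPM in sham. Those of adipocytes (6 genes) overlapped between axotomy and sham in both sexes. Male axotomy 2, which had the lowest mitochondrial share of its group, also had the lowest fibroblast, macrophage, Schwann cell, satellite glia and erythrocyte marker levels of its group and the highest neuron marker level. No marker of these lists was at 0 in all libraries.

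The nuclear genes for the other subunits of the same complexes were described next, with symbols listed from textbook composition. Complex I had 37 such subunits tested, of which 22 rose and 2 fell in males and 3 rose and 0 fell in females by edgeR (7 and 0 by DESeq2, 8 at an unadjusted p under 0.05). Those are 59.5% and 5.41% of the list in males and 8.11% and 0% in females, where 21.8% and 20.1% (males) and 10.4% and 9.74% (females) of all genes rose and fell. Their median log2FC was 0.25 in males and 0.15 in females. The accessory subunit Ndufb1 had a log2FC of 0.70 ± 0.12 in males (SE, padj = 0.00252) and 0.30 ± 0.12 in females (padj = 0.129). Ndufa13 had 0.52 ± 0.11 in males (SE, padj = 0.00492) and 0.29 ± 0.11 in females (padj = 0.101). Ndufa10, an accessory subunit, fell in males, at −0.29 ± 0.12 (padj = 0.0858 by edgeR).

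The shares over all genes tested were again 21.8% rose and 20.1% fell in males, and 10.4% rose and 9.74% fell in females. In complex III, 4 of 9 nuclear subunits rose (44.4%) and 1 fell (11.1%) in males. In females 0 rose and 0 fell by edgeR, 3 had an unadjusted p under 0.05 and DESeq2 called 1. Uqcrb had a log2FC of 0.55 ± 0.10 in males (SE, padj = 0.00303) and 0.22 ± 0.10 in females (padj = 0.175). Uqcrh had 0.37 ± 0.10 in males (SE, padj = 0.0146) and 0.25 ± 0.10 in females (padj = 0.120). The core protein Uqcrc1 fell by 0.25 ± 0.08 in males (padj = 0.0321). In complex IV, 6 of 11 rose in males (54.5%) and 2 of 11 in females (18.2%, 3 by DESeq2), and none fell in either sex by edgeR or DESeq2. Cox7a2 had 0.59 ± 0.12 in males (SE, padj = 0.00415) and 0.25 ± 0.12 in females (padj = 0.181). Cox7c had 0.55 ± 0.11 in males (SE, padj = 0.00447) and 0.30 ± 0.11 in females (padj = 0.0946). In the ATP synthase, 9 of 17 rose in males (52.9%) and 2 of 17 in females (11.8%, 8 by DESeq2), and none fell by either tool. The edgeR share in females was near that over all genes and is no result about the list. Atp5md had 0.75 ± 0.13 in males (SE, padj = 0.00211) and 0.41 ± 0.12 in females (padj = 0.0532). Atp5l, subunit g, had 0.61 ± 0.10 in males (SE, padj = 0.00177) and 0.27 ± 0.10 in females (padj = 0.0896).

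The medians in males were 0.18 (complex III), 0.38 (complex IV) and 0.25 (ATP synthase), and those in females 0.18, 0.25 and 0.19. The calls in females changed with the setting and with single libraries. No share over all genes is given for DESeq2, for other settings or for fits lacking 1 library. Their counts show only how far the calls moved. In the order complex I, III, IV and ATP synthase, 11, 3, 10 and 10 rose when only the female libraries were fitted, 0, 0, 0 and 1 with the replicate block, 2, 0, 1 and 4 with no filter on low counts and 2, 0, 0 and 3 with no length offset. In the same order, the number that rose in females was 0, 0, 0 and 0 without female axotomy 1, female axotomy 2, female sham 1 or female sham 2. It was 0, 0, 0 and 1 without male sham 1 or male sham 2, and 1, 0, 0 and 2 without male axotomy 1. Higher counts of 8, 3, 4 and 5 came without female axotomy 3, then 10, 3, 8 and 10 without male axotomy 2, and 9, 3, 7 and 9 without male axotomy 3. In males, in the same order, 5, 1, 4 and 6 rose without male sham 1, then 8, 2, 6 and 8 without male sham 2, with 14, 3, 6 and 9 in the fit lacking male axotomy 3. The 2 falls of complex I in males were lost in 9 of the 10 fits that left out 1 library, all but the one without male axotomy 2, which also had 2 falls in the ATP synthase. The fall of Uqcrc1 was lost without male sham 1 or male sham 2.

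**Figure D4:**
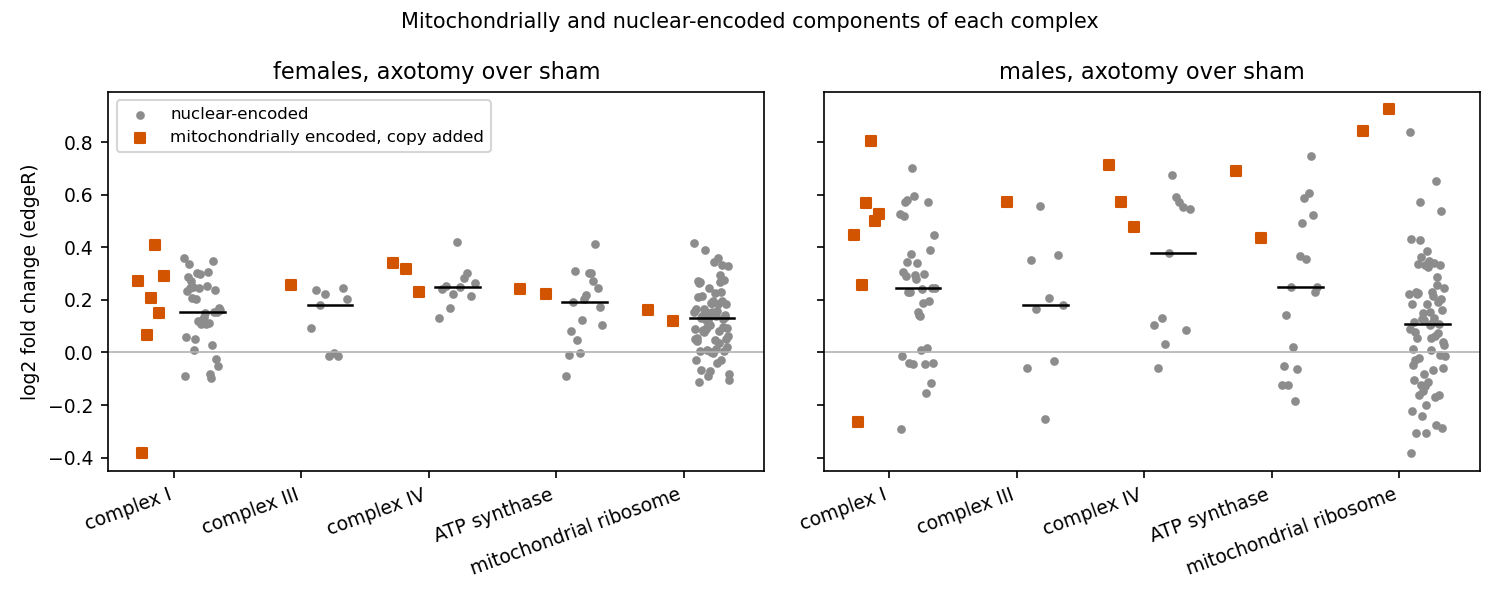
Log2 fold change of axotomy over sham in females (left) and males (right) for mitochondrially encoded genes with their nuclear copies added (squares) and for nuclear-encoded members of the same complex (dots, spread sideways for sight, line at their median). The mitochondrially encoded genes of males lie above the nuclear median in every complex except for mt-Nd6.

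Cox6a2, Cox7a1 and Cox8b are the striated-muscle forms of complex IV subunits. Cox6a2 was 0.178, 2.57 and 0.145 CPM in female axotomy, against 0.0585 and 0.0312 CPM in female sham. The 3 counts that a count of 0 still allows were 0.0439 to 0.0468 CPM in female sham. Female sham 2 lay below that for Cox6a2 and for Cox8b, so their fold changes in females are uncertain. The high value belonged to female axotomy 2, the library with raised skeletal muscle markers. By DESeq2 the log2FC of Cox6a2 in females was 4.39 ± 1.12 (SE, padj = 0.00134). By edgeR it was 4.31 ± 1.40 (SE, padj = 0.0734), and without female axotomy 2 it was 1.77 ± 0.57 (padj = 0.101). The call was also lost without female sham 1, female sham 2, male axotomy 2, male sham 1 or male sham 2. In males it was 0.54 ± 1.27 (padj = 0.776). Cox7a1 had a log2FC of 0.11 ± 0.19 in females (padj = 0.730) and 0.32 ± 0.19 in males (padj = 0.212), and Cox8b of 2.27 ± 1.22 in females (padj = 0.247) and −0.07 ± 1.31 in males (padj = 0.973). In female axotomy 2 the mitochondrial share, 3.81%, lay between those of the other female axotomy libraries.

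For the lists that follow, the shares over all genes tested were those given above, 21.8% rose and 20.1% fell in males and 10.4% rose and 9.74% fell in females, and a list's share near them is no result about the list. They belong to the main edgeR fit. None is given for DESeq2, other settings or fits lacking 1 library, whose counts show only how far the calls moved. Of 17 genes of mitochondrial transcription and its regulators, 6 rose (35.3%) and 3 fell (17.6%) in males. In females 0 rose and 2 fell (11.8%) by edgeR, with 4 at an unadjusted p under 0.05, and DESeq2 called 1 that rose and 2 that fell. Ppargc1a, a coactivator that drives the making of mitochondria, had −0.76 ± 0.13 in males (SE, padj = 0.00213) and −0.56 ± 0.13 in females (padj = 0.0195). Esrra, a nuclear receptor that works with it, had −0.54 ± 0.08 in males (SE, padj = 0.00133) and −0.35 ± 0.08 in females (padj = 0.0194). Both thus fell in both sexes, except that no gene of the list passed in females without female sham 2. Gabpa, a subunit of the factor NRF-2, had 0.45 ± 0.09 in males (SE, padj = 0.00349) and 0.10 ± 0.08 in females (padj = 0.459). Mterf3, which in the mouse holds back the start of mitochondrial transcription, had 0.55 ± 0.10 in males (SE, padj = 0.00257) and 0.13 ± 0.10 in females (padj = 0.413). The 6 rises in males were 2 without male sham 1, 3 without male sham 2 and 3 with only the male libraries fitted.

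Of 19 genes of mitochondrial DNA replication and the nucleoid, 2 rose (10.5%) and 4 fell (21.1%) in males, and 0 rose and 1 fell (5.26%) in females by edgeR and DESeq2, where 1 had an unadjusted p under 0.05. Tfam, which packages mitochondrial DNA and starts its transcription, had 0.38 ± 0.10 in males (SE, padj = 0.0170) and 0.21 ± 0.10 in females (padj = 0.205). In CPM the Tfam ranges overlapped in both sexes, and the fit, unlike CPM, uses effective lengths as offsets. Male axotomy had 18.5 to 22.8 CPM of Tfam, against 18.7 to 19.8 CPM in male sham. Female axotomy had 19.8 to 21.5 CPM, against 20.1 to 21.1 CPM in female sham. Twnk, the replicative helicase, had 0.26 ± 0.10 in males (SE, padj = 0.0600) and 0.16 ± 0.10 in females (padj = 0.311). Slc25a33, a carrier of pyrimidine nucleotides, had −0.38 ± 0.08 in males (SE, padj = 0.00529) and −0.14 ± 0.08 in females (padj = 0.280). Top1mt, a topoisomerase, had −0.35 ± 0.11 in males (SE, padj = 0.0354) and −0.16 ± 0.12 in females (padj = 0.397). With only the male libraries fitted, 1 rose and 2 fell. In males 0 rose and 1 fell without male sham 1, 1 rose and 1 fell without male sham 2, 1 rose and 3 fell without male axotomy 1, and 5 rose and 6 fell without male axotomy 2. The 1 fall in females was lost without any of the 5 female libraries and without male sham 1 or male sham 2.

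Of 35 genes of mitochondrial RNA processing, polyadenylation and decay, 8 rose (22.9%) and 7 fell (20%) in males, both near the shares over all genes, and 2 rose (5.71%) and 0 fell in females, where 4 had an unadjusted p under 0.05 and DESeq2 called 1 that fell. Lrpprc and Slirp form a complex that protects mitochondrial mRNAs and promotes their polyadenylation, and in males they changed in opposite directions. Lrpprc had −0.32 ± 0.08 in males (SE, padj = 0.0104) and −0.21 ± 0.08 in females (padj = 0.105). Slirp had 0.63 ± 0.16 in males (SE, padj = 0.0131) and 0.32 ± 0.16 in females (padj = 0.206). Mrm1, which methylates the large rRNA, had 0.25 ± 0.10 in males (SE, padj = 0.0738) and 0.38 ± 0.10 in females (padj = 0.0299). Gtpbp3, which modifies tRNAs, had −0.37 ± 0.09 in males (SE, padj = 0.0127) and −0.18 ± 0.09 in females (padj = 0.227). With only the libraries of that sex fitted, 5 rose and 3 fell in males and 4 rose and 1 fell in females. In males 3 rose and 3 fell without male sham 1, 1 rose and 3 fell without male sham 2, and 7 rose and 4 fell without male axotomy 3. In females 0 rose without female axotomy 1, female sham 1 or female sham 2, and 1 rose without female axotomy 3, male sham 1 or male sham 2. There 1 fell without female axotomy 3 or any 1 of the 3 male axotomy libraries.

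Of 72 mitochondrial ribosomal proteins, 19 rose (26.4%) and 9 fell (12.5%) in males, and 7 rose (9.72%) and 0 fell in females, where 15 had an unadjusted p under 0.05 and DESeq2 called 9 that rose and 0 that fell. The share that rose was near that over all genes in females. With only the libraries of 1 sex fitted, 9 rose in males and 17 rose in females. Chchd1, a small-subunit protein, had 0.84 ± 0.14 in males (SE, padj = 0.00190) and 0.42 ± 0.13 in females (padj = 0.0681). Mrps18c had 0.65 ± 0.12 in males (SE, padj = 0.00366) and 0.29 ± 0.12 in females (padj = 0.145). Gadd45gip1, a large-subunit protein, had −0.38 ± 0.09 in males (SE, padj = 0.0111) and 0.09 ± 0.10 in females (padj = 0.584). Mrpl44 had −0.30 ± 0.08 in males (SE, padj = 0.0121) and −0.07 ± 0.08 in females (padj = 0.580). In females 0 rose without female sham 1 or female sham 2, 1 without female axotomy 1 or female axotomy 2, 3 without male sham 1 and 15 without male axotomy 2. In males 6 rose without male sham 1, 8 without male sham 2, 12 without male axotomy 1 or male axotomy 3 and 29 without male axotomy 2, and 4 fell without male sham 2.

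Of 22 aminoacyl-tRNA synthetases and related enzymes that charge mitochondrial tRNAs, 2 rose (9.09%) and 5 fell (22.7%) in males and 1 rose (4.55%) and 2 fell (9.09%) in females. Gars had 0.23 ± 0.11 in males (SE, padj = 0.138) and 0.49 ± 0.11 in females (padj = 0.0210). Gatb had 0.74 ± 0.22 in males (SE, padj = 0.0249) and −0.14 ± 0.21 in females (padj = 0.710). Iars2 had −0.42 ± 0.08 in males (SE, padj = 0.00270) and −0.30 ± 0.08 in females (padj = 0.0277). Lars2, the leucyl-tRNA synthetase, had −0.99 ± 0.18 in males (SE, padj = 0.00275) and 0.45 ± 0.18 in females (padj = 0.123), and its interaction was −1.44 ± 0.25 (padj = 0.138). It was the 1 gene of these nuclear lists that passed between the sexes, at −1.16 ± 0.16 in male axotomy over female axotomy (padj = 0.0199). Over all genes tested, 1.52% passed in that comparison, so 1 call is no result about the lists. Of 16 translation factors and membrane insertion proteins, 0 rose and 5 fell (31.2%) in males, and 0 rose and 1 fell (6.25%) in females, by edgeR and by DESeq2 alike, with 5 and 2 at an unadjusted p under 0.05. Oxa1l, which inserts mitochondrially made proteins into the inner membrane, had −0.37 ± 0.08 in males (SE, padj = 0.00708) and −0.28 ± 0.08 in females (padj = 0.0507). Tsfm, an elongation factor, had −0.34 ± 0.09 in males (SE, padj = 0.0120) and 0.04 ± 0.09 in females (padj = 0.814). The fall in females was lost without female axotomy 1, female axotomy 2, female sham 1 or female sham 2, and the count was 2 without male axotomy 2 and 3 without male axotomy 3. In males 3 fell without male sham 1 or male sham 2. For the synthetases, 0 rose and 0 fell in females without female sham 1 or female sham 2, 1 rose and 1 fell without female axotomy 1 or female axotomy 2, and 2 rose and 2 fell without female axotomy 3 or male axotomy 2. In males 1 rose and 3 fell without male sham 1, and 0 rose and 4 fell without male sham 2.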

How the data were processed

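Trimmed paired-end reads of 10 poly(A)-selected, stranded libraries, each of DRG from 2 mice, had been quantified by the authors with Salmon 1.3.0 (after Trimmomatic 0.39) on Gencode M27 transcripts. The deposited files give estimated counts, TPM and effective lengths per transcript, and whether Salmon used strand is not stated. Estimated counts were summed per gene and rounded. Libraries held 55258476 to 90111671 estimated counts, and floors and shares carry counting error only.

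The main fit used edgeR 4.0.16 (R 4.3.3, quasi-likelihood, robust) with 4 group means, TMM factors, effective lengths as offsets and filterByExpr with a minimum count of 10. P values were adjusted by Benjamini-Hochberg over 20836 genes and called at padj under 0.1. The common biological coefficient of variation was 0.129. DESeq2 1.42.0 and the settings named in the closing section were alternatives. The deposited TPM values served only for an alternative share. Copies were found with BLAST+ 2.17.0 against Gencode M21 transcripts, at 90% identity or more, and called near-identical at 99% over 200 bases. The script was tested on simulated data.

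All mt- mRNAs and rRNAs were named, and of each nuclear list up to 2 genes with the smallest p among those that rose and up to 2 among those that fell in either sex, except 1 gene that is not reported here. The members and lists were chosen with earlier results of these data known.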

Additional observations from a re-analysis of the deposited data

How the results depend on the processing

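Where not stated here or beside the result, an alternative kept the count of called mitochondrial genes within 1.5 times (nuclear lists are not covered by this). The number that rose in females, 2 as reported, was 1 with no filter on low counts, with no length offset, with the replicate block and with the nuclear copies added, and 8 (with 1 that fell) when only the female libraries were fitted. Leaving out 1 library gave 0 to 8 that rose and 0 to 1 that fell in females, 8 to 13 that rose and 0 to 1 that fell in males, 0 to 6 that passed the interaction, and 0 to 13 that passed between male axotomy and female axotomy. The highest values of both sex comparisons were those without male axotomy 2. No share over all genes is given for the alternatives or for the fits that left out 1 library. Between male sham and female sham, 1 passed with DESeq2. Between male axotomy and female axotomy, 2 passed with DESeq2, 1 with no filter and 1 with the replicate block. As a share of summed TPM, the ratio of axotomy to sham in females was 1.073, beside 1.198 for counts. In males it was 1.210, beside 1.438 for counts. Without division by effective length, mt-Atp8 held 5.20%, mt-Co1 31.1% and mt-Nd6 0.0411% of the counts of the 13 mitochondrial mRNAs. Per length with the copies added these were 35.3%, 8.94% and 0.0563%. mt-Co3 in males turned to 0.71 with Gm28437 added, which by construction assigns the shared reads to 1 gene, and the cause of the other changes was not tested. The interaction could not be fitted with only the groups compared.

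Whether replicate numbers mark a pairing was not settled. Over 13 same-number pairs the correlation of deviations ran from −0.17 to 0.30, with 4 over 0.1. Pairs of different numbers were not compared, so these values cannot show whether a pairing exists. The replicate block changed the counts as given above. With 2 sham libraries a sex and the spread between libraries far above counting error, the number of libraries, not depth, limits these comparisons. The tRNAs, with 8 counts in all and a protocol that selects poly(A) RNA, could not be compared.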
